A study of Mus musculus with 18 samples.

Results

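The genes described here are Brd2 and Brd3, which encode bromodomain and extra-terminal (BET) readers of acetylated histones, Cdk9, Ccnt1 and Ccnt2, which encode the kinase and the cyclins of the elongation factor P-TEFb, Hexim1, which encodes its inhibitor, and Myc. They were chosen by symbol, because BET inhibitors were part of the study, and they make up 7 of the 23420 gene symbols in the count table. RNA-sequencing counts were available for 18 libraries of NIH-3T3 cells, an immortalised line of mouse embryonic fibroblasts, with 3 biological replicates in each of 6 groups. Wild-type (WT) cells and cells in which Nrf1 had been disrupted with CRISPR/Cas9 (Nrf1KO) received either the vehicle DMSO, for a time that the sources used here do not give, or 200 nM of the proteasome inhibitor carfilzomib (CFZ) for 6 h or 24 h. The Nrf1 of the study is the transcription factor encoded by Nfe2l1, which raises proteasome gene expression when proteasomes are inhibited, and whether the Nrf1KO line is 1 clone is not given in the sources used here. Each line's 6 h and 24 h comparisons share the same 3 DMSO libraries. With 1 DMSO group per line, of a time not given, effects of CFZ and of time in culture cannot be told apart. The same holds for changes from 6 h to 24 h.

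RNA polymerase II pauses shortly after it starts a gene, and P-TEFb, a complex of CDK9 with cyclin T1 or T2, releases it by phosphorylating the polymerase and the pausing factors DSIF and NELF. A large share of P-TEFb is held inactive in the 7SK small nuclear ribonucleoprotein, in which HEXIM1 blocks the kinase, and BET proteins and the super elongation complex bring the active form to genes. BET inhibitors displace BET proteins from chromatin, and MYC, a transcription factor of growth and proliferation genes whose mRNA and protein are short-lived, is the best known gene that falls with them, whereas HEXIM1 mRNA is a widely used marker that rises with them. No BET inhibitor was given to any of these 18 libraries.

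Total counts per library ran from 8333148 to 23917081 with a median of 14419832, and the 7 genes had between 304 and 15296 counts in a library, so all 7 were among the 11762 genes tested. Nfe2l1 was lower in Nrf1KO than in WT in every condition, with a log2 difference of -1.31 in DMSO (180 ± 5.27 CPM against 448 ± 9.87, SD, n = 3), -0.62 at 6 h and -1.47 at 24 h, and its reads do not show which part of the gene was edited. Fibroblast markers added up to 27356 to 35671 CPM (counts relative to the TMM-scaled library total) in the DMSO libraries of both lines, to 28167 to 32285 at 6 h and to 8090 to 12846 at 24 h, and all 8 were detected in every group. The 7 markers of epithelial, endothelial and blood cells together gave 1.82 to 15.1 CPM, and 1 to 3 of them were at 0 in a group, Epcam in all 6. At these low levels the leukocyte marker Ptprc stood higher in Nrf1KO than in WT, by 6.92 in DMSO, 6.82 at 6 h and 7.24 at 24 h (log2). Differences of this size at such levels rest on counts near 0 in WT, so their size is uncertain. Against DMSO at 24 h, Cdh5 was at 3.67 in WT and 4.22 in Nrf1KO, and Cdh1 at -3.54 and -4.87. Whether the lower fibroblast markers at 24 h bear on the results at that time was not tested. In bulk RNA, fewer cells of a type and less RNA per cell cannot be told apart, and CPM are shares of a library rather than amounts per cell. Scaling by library size alone in place of TMM (trimmed mean of M values) moved the median log2 fold change of all genes by -0.13 in WT at 6 h, -0.11 in WT at 24 h, -0.11 in Nrf1KO at 6 h and -0.18 in Nrf1KO at 24 h, so differences of that size between CFZ and DMSO depend on the scaling. With it, the share of called genes that were higher went from 49.6% to 35.4% in WT at 6 h (37.9% with upper-quartile scaling), from 49.7% to 36.4% in Nrf1KO at 6 h, from 52.0% to 41.6% in Nrf1KO at 24 h, from 46.9% to 57.7% between the lines in DMSO and from 49.8% to 60.8% between them at 6 h.

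In GENCODE M21 (GRCm38) Brd2 lies on chromosome 17 from 34112023 to 34122634, Brd3 on chromosome 2 from 27445579 to 27507662 and Cdk9 on chromosome 2 from 32705784 to 32713076, all on the minus strand. Ccnt1 lies on chromosome 15 from 98538689 to 98570923 on the minus strand, Ccnt2 on chromosome 1 from 127774164 to 127808061 on the plus strand, Hexim1 on chromosome 11 from 103116231 to 103119725 on the plus strand as a gene of 1 exon, and Myc on chromosome 15 from 61985391 to 61990374 on the plus strand. Exons of opposite-strand genes cover 4.6% (H2-DMa) and 5.17% (CR974462.3) of the exonic bases of Brd2, each counted separately, and 7.59% of those of Ccnt1 (9330020H09Rik). Reads there cannot be assigned with certainty because the strand setting of the authors' counting is not given in the sources used here. No stretch as long as a sequencing read was shared between a transcript of any of the 7 genes and another gene.

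RefSeq promoter windows (GRCm38.p6), from 250 bases before to 50 bases after an annotated start, were found for 6 of the 7 genes, all but Myc. The 250 bases before the start are shown for Hexim1, whose mRNA fell at 6 h and rose again by 24 h, for Cdk9, which changed least, and for Ccnt1, which rose and was the only one of the 6 with a match to a searched motif. The match is in capitals. Starts are those of RefSeq and differ from the GENCODE gene ends given above. The shown bases of Ccnt1 and Cdk9 lie inside the GENCODE spans of these genes, and those of Hexim1 run past its GENCODE start. They may thus include transcribed sequence.
Hexim1 (chr11:103116075-103116324, plus strand): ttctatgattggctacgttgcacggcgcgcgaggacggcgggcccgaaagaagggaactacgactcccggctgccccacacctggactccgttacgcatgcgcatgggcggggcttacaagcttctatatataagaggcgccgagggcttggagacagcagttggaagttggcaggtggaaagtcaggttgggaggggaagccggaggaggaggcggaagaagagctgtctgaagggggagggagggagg
Cdk9 (chr2:32712785-32713034, minus strand): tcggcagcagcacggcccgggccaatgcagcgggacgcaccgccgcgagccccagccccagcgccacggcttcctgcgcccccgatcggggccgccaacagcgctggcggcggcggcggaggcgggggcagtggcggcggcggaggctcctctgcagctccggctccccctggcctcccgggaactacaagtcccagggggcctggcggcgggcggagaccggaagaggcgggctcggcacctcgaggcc
Ccnt1 (chr15:98567737-98567986, minus strand): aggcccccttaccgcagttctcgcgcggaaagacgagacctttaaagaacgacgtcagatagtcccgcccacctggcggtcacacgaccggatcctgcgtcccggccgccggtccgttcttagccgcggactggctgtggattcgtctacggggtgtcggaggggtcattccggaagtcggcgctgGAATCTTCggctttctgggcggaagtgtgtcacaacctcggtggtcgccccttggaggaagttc

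The capitals mark GAANNTTC, a pair of inverted units of the heat shock element, which begins 64 bases before the RefSeq start of Ccnt1, inside its GENCODE span. These letters are in 7.89% of the 32544 RefSeq mouse promoter windows of 300 bases, read on both strands. The E-box CACGTG (7.17% of windows), the antioxidant response element core TGACNNNGC (12.4%), the cyclic AMP response element TGACGTCA (1.8%), the amino acid response element TGATGNAAT (0.956%) and TATAAA (13.6%) were in none of the 8 windows of the 6 genes, 3 of which belong to Brd2. A match is only a description of the letters, and variants of these letters were not searched.

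Levels between genes were compared as CPM per kilobase of exon. In WT cells in DMSO Brd2 was the highest of the 7 genes at 46.8 ± 1.62 CPM per kilobase (SD, n = 3), followed by Myc at 19.0, Hexim1 at 18.3, Cdk9 at 11.8, Brd3 at 10.8, Ccnt2 at 3.69 and Ccnt1 at 2.84. The cyclin genes were the lowest of the 7 in all 6 groups, and Brd2 was the highest in all 6. At 6 h of CFZ in Nrf1KO cells Cdk9 stood above Hexim1, at 13.3 against 10.7 CPM per kilobase, the reverse of their order in the other 5 groups. Lengths are those of all annotated exons of a gene joined, not of the transcripts in use.

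**Figure D1:**
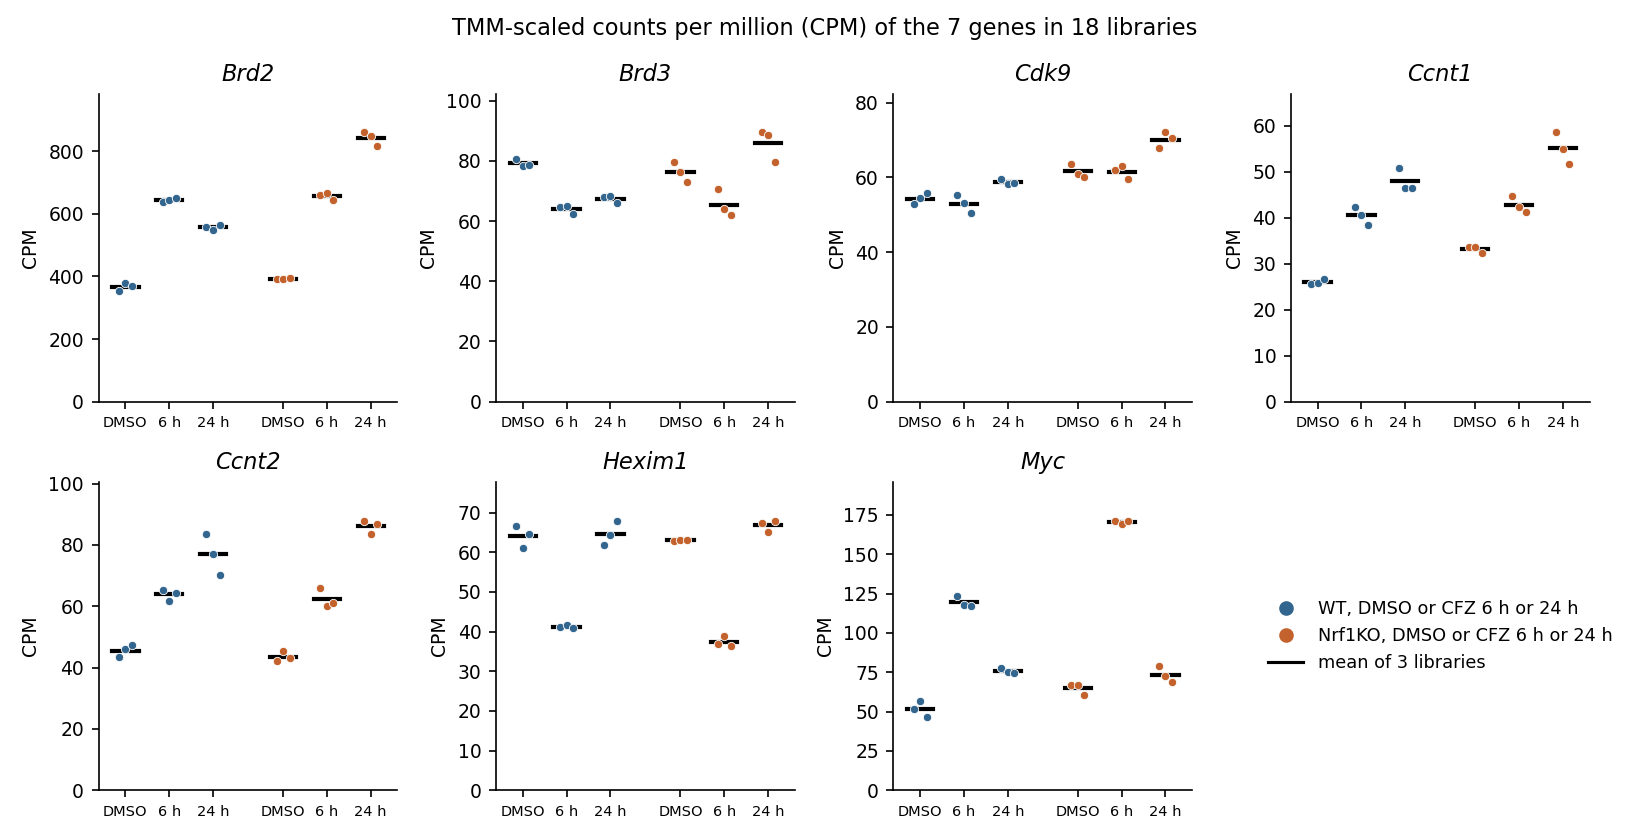
TMM-scaled CPM (y axis, from 0, a separate scale for each gene) of the 7 genes in each of the 18 libraries, by line and treatment (x axis). Points are libraries and bars are means of 3. Hexim1 is lowest and Myc highest in the 6 h libraries of both lines, and Ccnt1 and Ccnt2 go up from DMSO to 6 h and from 6 h to 24 h.

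Brd2 was higher with CFZ in both lines and at both times, whereas Brd3 was lower in 3 of the 4 comparisons with DMSO. BRD2 and BRD3 are close relatives that bind acetylated histones through paired bromodomains. In WT cells Brd2 was at 353, 378 and 368 CPM in the DMSO libraries, at 636, 645 and 652 CPM at 6 h, and at 558, 549 and 564 CPM at 24 h. In Nrf1KO cells it was at 390, 392 and 394 CPM in DMSO, at 660, 667 and 644 CPM at 6 h, and at 861, 849 and 817 CPM at 24 h. The 3 WT groups did not overlap and neither did the 3 Nrf1KO groups, and the Nrf1KO libraries at 24 h were the highest of all 18. Only WT and Nrf1KO at 6 h overlapped among neighbours in the order of the 6 groups. In WT the rise of Brd2 over DMSO was 0.81 ± 0.033 on the log2 scale (SE) at 6 h and 0.61 ± 0.033 at 24 h (adjusted p = 3.04e-20 and 2.24e-17, edgeR's quasi-likelihood test with Benjamini-Hochberg adjustment over the 11762 genes). In Nrf1KO it was 0.74 ± 0.033 at 6 h and 1.10 ± 0.032 at 24 h (adjusted p = 4.42e-19 and 1.78e-24). From 6 h to 24 h Brd2 fell by 0.21 on the log2 scale in WT (adjusted p = 9.42e-07) and rose by 0.36 in Nrf1KO (adjusted p = 1.21e-11). The response of Nrf1KO minus that of WT, the interaction of line and CFZ, was 0.50 ± 0.046 for Brd2 at 24 h and -0.07 ± 0.046 at 6 h (adjusted p = 6.69e-11 and 0.244).

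The level of Brd3 spanned a narrower range, 1.34-fold between the lowest and the highest group mean against 2.30-fold for Brd2. It was 78.3 to 80.5 CPM in the WT DMSO libraries, 62.4 to 64.9 at 6 h and 65.9 to 68.2 at 24 h, and the CFZ libraries all lay below the DMSO libraries. In Nrf1KO it was 72.9 to 79.7 CPM in DMSO, 61.9 to 70.5 at 6 h and 79.5 to 89.6 at 24 h, and here DMSO and 24 h overlapped. Brd3 fell in WT at both times, with log2 fold changes of -0.31 ± 0.049 and -0.24 ± 0.048 (adjusted p = 1.35e-06 and 4.50e-05), and in Nrf1KO at 6 h, with -0.21 ± 0.050 (adjusted p = 4.66e-04). At 24 h in Nrf1KO it was 0.18 ± 0.045 higher than in DMSO (adjusted p = 6.82e-04), but with scaling by library size alone the difference was -0.01 (adjusted p = 0.908). Its interaction was 0.41 ± 0.066 at 24 h and 0.10 ± 0.070 at 6 h (adjusted p = 2.99e-06 and 0.265).

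Within a library the ratio of Brd2 counts to Brd3 counts does not depend on the scaling. Its geometric mean went from 4.62 in WT DMSO to 10.1 at 6 h and 8.27 at 24 h, and from 5.15 in Nrf1KO DMSO to 10.1 at 6 h and 9.82 at 24 h. All 12 CFZ libraries lay above all 6 DMSO libraries, with 8.05 the lowest of the former and 5.40 the highest of the latter. The exact permutation test (two-sided) gave p = 0.1 for each CFZ group against DMSO, the smallest value that 3 against 3 libraries allow, and 0.129 after Benjamini-Hochberg adjustment over the 27 ratio tests. At 6 h the lines overlapped (exact permutation p = 0.8), and at 24 h every Nrf1KO library was above every WT library.

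Among the P-TEFb genes both cyclins rose with CFZ in both lines at both times, while Cdk9, the kinase, moved by at most 0.19 on the log2 scale. Ccnt1 and Ccnt2 encode cyclins T1 and T2, each of which can form P-TEFb with CDK9. Ccnt1 was at 25.6, 25.7 and 26.7 CPM in WT DMSO, at 42.3, 40.6 and 38.5 CPM at 6 h, and at 50.8, 46.3 and 46.4 CPM at 24 h. In Nrf1KO it was at 33.6, 33.6 and 32.3 CPM in DMSO, at 44.7, 42.2 and 41.1 CPM at 6 h, and at 58.6, 54.9 and 51.6 CPM at 24 h. Within each line the 3 groups did not overlap, with DMSO lowest and 24 h highest, and the Nrf1KO DMSO libraries all lay above the WT DMSO libraries. Ccnt1 rose by 0.64 ± 0.058 at 6 h and 0.87 ± 0.056 at 24 h in WT (log2, SE, adjusted p = 2.23e-11 and 2.13e-15), and by 0.37 ± 0.056 and 0.73 ± 0.051 in Nrf1KO (adjusted p = 6.38e-07 and 1.26e-14). For Ccnt1 the interaction was -0.27 ± 0.081 at 6 h and -0.14 ± 0.076 at 24 h (adjusted p = 0.00930 and 0.119), and the 24 h value was called at -0.22 with library size alone (adjusted p = 0.0164) and at -0.18 without Nrf1KO CFZ 24 h replicate 1 (adjusted p = 0.0390).

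Ccnt2 was at 43.4 to 47.2 CPM in WT DMSO, 61.8 to 65.4 at 6 h and 70.3 to 83.7 at 24 h. In Nrf1KO the libraries were at 42.3 to 45.3 CPM in DMSO, 60.2 to 66.0 at 6 h and 83.5 to 88.0 at 24 h. The lines overlapped in DMSO, at 6 h and, by 1 WT library at 83.7 CPM, at 24 h. In WT the rise was 0.49 ± 0.054 at 6 h and 0.75 ± 0.052 at 24 h (log2, SE, adjusted p = 1.52e-09 and 1.65e-14), and in Nrf1KO 0.53 ± 0.055 and 0.99 ± 0.050 (adjusted p = 6.43e-10 and 4.83e-18). The interaction for Ccnt2 was 0.24 ± 0.073 at 24 h and 0.04 ± 0.077 at 6 h (adjusted p = 0.00634 and 0.749), and at 24 h it was 0.16 with scaling by library size alone (adjusted p = 0.0692).

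The ratio of Ccnt1 to Ccnt2 counts within a library separated the lines in DMSO, with a geometric mean of 0.571 in WT and 0.762 in Nrf1KO (exact permutation p = 0.1, the smallest possible). With CFZ it went up to 0.634 and 0.622 in WT and down to 0.684 and 0.638 in Nrf1KO at 6 h and 24 h. None of these 4 CFZ groups overlapped the DMSO group of its own line, and at 24 h the lines overlapped (exact permutation p = 0.9).

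Cdk9 was the least variable of the 7 genes, with 1.32-fold between its lowest and highest group means. In WT it was at 52.8 to 55.7 CPM in DMSO, 50.5 to 55.2 at 6 h and 58.2 to 59.7 at 24 h, and in Nrf1KO at 60.2 to 63.6, 59.5 to 62.9 and 67.7 to 72.1 CPM. In all 3 conditions every Nrf1KO library lay above every WT library. At 6 h the difference from DMSO was -0.04 ± 0.045 in WT (log2, SE, adjusted p = 0.492) and 0.00 ± 0.044 in Nrf1KO (adjusted p = 0.928), and with scaling by library size alone these were -0.17 (adjusted p = 0.00134) and -0.11 (adjusted p = 0.0296). With upper-quartile scaling the WT value was -0.14 (adjusted p = 0.00555). At 24 h it was 0.11 ± 0.044 in WT (adjusted p = 0.0180) and 0.19 ± 0.041 in Nrf1KO (adjusted p = 7.79e-05), and both were 0.01 with scaling by library size alone (adjusted p = 0.862 and 0.850). In WT the difference was -0.02 with upper-quartile scaling (adjusted p = 0.63) and was also not called with DESeq2 (0.10, adjusted p = 0.122), without the expression filter (0.06, adjusted p = 0.352), in a model of only the compared groups (0.08, adjusted p = 0.0821) or without WT DMSO replicate 1 (0.06). The interactions of Cdk9 were 0.04 ± 0.063 at 6 h and 0.08 ± 0.060 at 24 h (adjusted p = 0.656 and 0.271).

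Hexim1, the gene of the P-TEFb inhibitor, fell at 6 h of CFZ in both lines and rose again from 6 h to 24 h. It was at 66.5, 61.1 and 64.6 CPM in WT DMSO, at 41.1, 41.7 and 40.9 CPM at 6 h, and at 61.9, 64.2 and 67.7 CPM at 24 h. In Nrf1KO the libraries stood at 62.8, 63.1 and 63.0 CPM in DMSO, at 36.9, 38.8 and 36.5 CPM at 6 h, and at 67.3, 65.0 and 68.0 CPM at 24 h. All 6 libraries at 6 h lay below the other 12, and the Nrf1KO libraries at 6 h were the lowest. The 24 h libraries overlapped the DMSO libraries in WT and all lay above them in Nrf1KO. The log2 fold change at 6 h was -0.64 ± 0.046 in WT (1.55-fold lower, adjusted p = 9.98e-14) and -0.75 ± 0.048 in Nrf1KO (1.68-fold lower, adjusted p = 6.89e-15), and the interaction was -0.11 ± 0.067 (adjusted p = 0.194). From 6 h to 24 h Hexim1 rose by 0.65 ± 0.047 in WT (adjusted p = 8.65e-14) and 0.83 ± 0.048 in Nrf1KO (adjusted p = 2.81e-16). Against DMSO the 24 h level differed by 0.02 ± 0.042 in WT (adjusted p = 0.715) and 0.08 ± 0.041 in Nrf1KO (adjusted p = 0.0598), and the sign of both depended on the scaling. With library size alone the values were -0.09 (adjusted p = 0.0569) and -0.10 (adjusted p = 0.0274), and with upper quartiles -0.12 (adjusted p = 0.0107) and -0.03 (adjusted p = 0.567), so Hexim1 at 24 h was called lower than DMSO in 1 line under each. The 24 h interaction was 0.07 ± 0.059 (adjusted p = 0.344).

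The ratio of Hexim1 to Cdk9 counts, free of the scaling, had geometric means of 1.18 in WT DMSO, 0.780 at 6 h and 1.10 at 24 h. In Nrf1KO the same ratio was 1.02, 0.608 and 0.953. At 6 h it was 1.51-fold lower than in DMSO in WT and 1.68-fold lower in Nrf1KO, with no overlap (exact permutation p = 0.1 for both, 0.129 after adjustment), and at 24 h it overlapped the DMSO group in both lines (exact permutation p = 0.2 for both). Nrf1KO was below WT in DMSO, at 6 h and at 24 h, with no overlap in any of the 3 conditions (exact permutation p = 0.1 each).

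**Figure D2:**
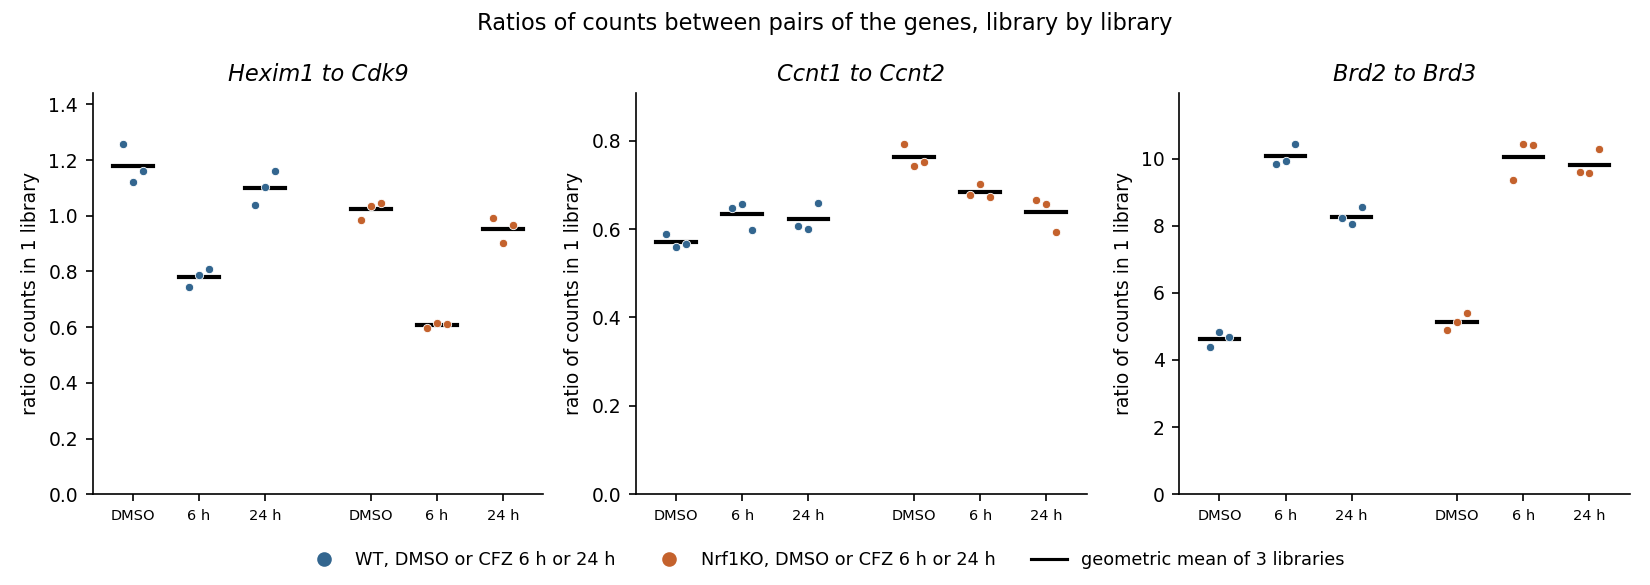
Ratio of raw counts between 2 genes in the same library (y axis, from 0) for Hexim1 to Cdk9, Ccnt1 to Ccnt2 and Brd2 to Brd3, by line and treatment (x axis). Points are libraries and bars are geometric means of 3. Hexim1 to Cdk9 is lowest at 6 h in both lines (0.780 and 0.608), and Brd2 to Brd3 is above 8 in every CFZ library and at most 5.40 in DMSO.

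Myc rose most of the 7 genes at 6 h in both lines and stood lower again at 24 h. In WT it was at 51.3, 56.7 and 46.7 CPM in DMSO, at 123, 118 and 117 CPM at 6 h, and at 78.0, 74.9 and 74.5 CPM at 24 h. In Nrf1KO it was at 67.1, 67.1 and 60.8 CPM in DMSO, at 171, 169 and 171 CPM at 6 h, and at 78.8, 72.7 and 68.7 CPM at 24 h. The 6 h libraries of Nrf1KO were the highest of the 18 and those of WT came next, and at 24 h the lines overlapped. At 6 h the rise was 1.21 ± 0.053 on the log2 scale in WT (2.31-fold, adjusted p = 2.66e-19) and 1.40 ± 0.050 in Nrf1KO (2.64-fold, adjusted p = 1.70e-21). The difference between these responses was 0.19 ± 0.073 (adjusted p = 0.0361). It was no longer called with DESeq2 (0.19, adjusted p = 0.063) nor when any of 9 of the 12 libraries concerned was left out, namely any of the 6 libraries at 6 h, WT DMSO replicate 1 or 2, or Nrf1KO DMSO replicate 3 (0.12 to 0.20, adjusted p from 0.0510 to 0.201).

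At 24 h Myc was higher than in DMSO by 0.55 ± 0.055 in WT (adjusted p = 1.22e-10) and by 0.18 ± 0.053 in Nrf1KO (adjusted p = 0.00217), where the difference was 0.00 with scaling by library size alone (adjusted p = 0.978), 0.07 with upper quartiles (adjusted p = 0.190) and 0.10 without Nrf1KO CFZ 24 h replicate 1 (adjusted p = 0.0808). The interaction at 24 h was -0.37 ± 0.076 (adjusted p = 1.22e-04). From 6 h to 24 h Myc fell, with log2 changes of -0.66 in WT (adjusted p = 5.82e-13) and -1.22 in Nrf1KO (adjusted p = 2.80e-20), whereas Hexim1 rose over the same interval in both lines.

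**Figure D3:**
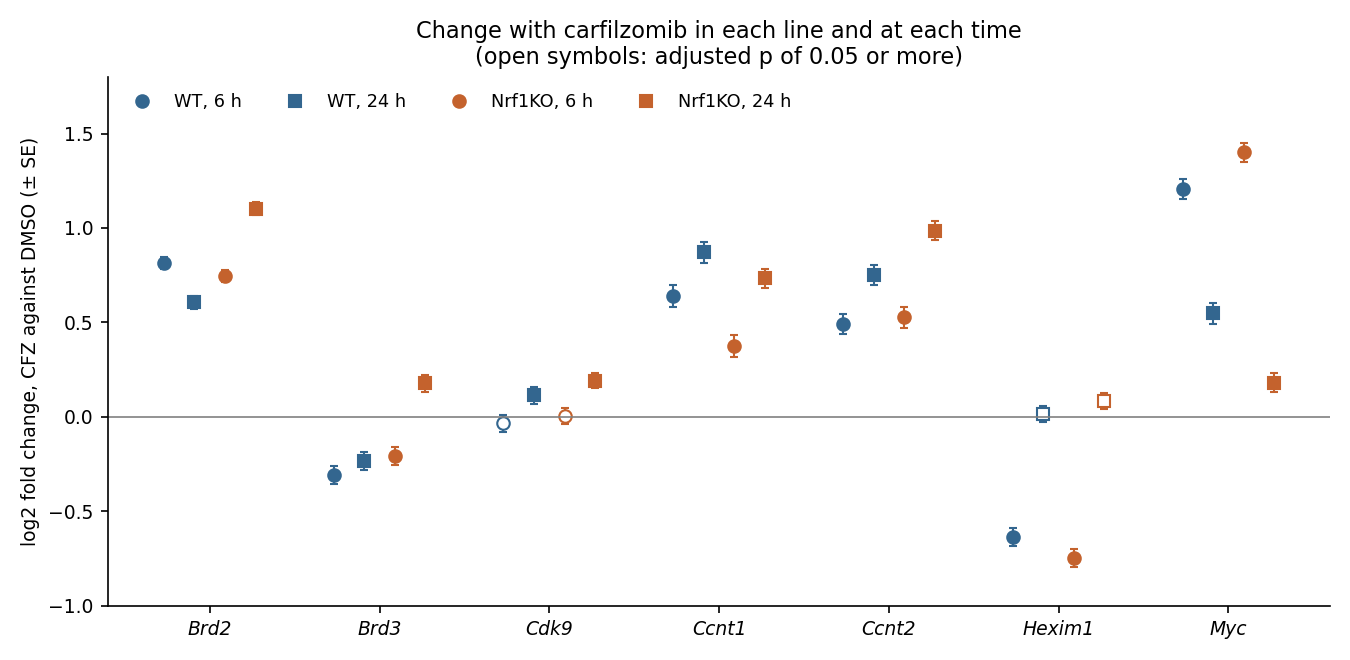
Log2 fold change of CFZ against DMSO (y axis, bars are SE from the model of all 18 libraries) of the 7 genes (x axis) in WT and Nrf1KO at 6 h and 24 h. Open symbols did not pass an adjusted p of 0.05. At 6 h Myc is at 1.21 and 1.40 and Hexim1 at -0.64 and -0.75 in WT and Nrf1KO, and at 24 h the highest point is Brd2 in Nrf1KO at 1.10.

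In the order of the 6 group means, Myc was lowest in WT DMSO, followed by Nrf1KO DMSO, Nrf1KO at 24 h, WT at 24 h, WT at 6 h and Nrf1KO at 6 h, and among neighbours only the 24 h groups of the lines overlapped. Ccnt1 ran from WT DMSO through Nrf1KO DMSO and the 6 h groups to WT and then Nrf1KO at 24 h, with only the 6 h groups overlapping. For Ccnt2 the lines overlapped in each condition, in the order DMSO, 6 h and 24 h. Hexim1 had its lowest mean in Nrf1KO at 6 h and the next in WT at 6 h, which did not overlap, and the other 4 groups followed with an overlap between each pair of neighbours. Brd3 fell into a lower set of WT at 6 h, Nrf1KO at 6 h and WT at 24 h and an upper set of Nrf1KO DMSO, WT DMSO and Nrf1KO at 24 h, with overlaps between neighbours inside each set and none between the sets. Cdk9 overlapped between WT at 6 h and WT DMSO, then, above a gap, from WT at 24 h through Nrf1KO at 6 h to Nrf1KO DMSO, and Nrf1KO at 24 h stood apart at the top.

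Counted over the 7 genes, 4 rose and 2 fell at 6 h in WT, where 35.6% of all tested genes rose and 36.2% fell, and 4 rose and 2 fell at 6 h in Nrf1KO, where 34.5% rose and 35.0% fell. At 24 h 5 rose and 1 fell in WT (43.2% and 40.5% of all genes), and 6 rose and 0 fell in Nrf1KO (44.4% and 41.1%). With upper-quartile scaling these counts were 4 higher and 2 lower in WT and 3 higher and 0 lower in Nrf1KO, and with library size alone 4 higher and 1 lower in WT and 3 higher and 1 lower in Nrf1KO. At 6 h Cdk9 joined the lower genes, 3 in all, in both lines with library size alone and in WT with upper quartiles. The median log2 fold change of the 7 was 0.49, 0.55, 0.37 and 0.19 in these 4 comparisons, and that of all genes was -0.02, 0.02, -0.01 and 0.03. From 6 h to 24 h 4 of the 7 rose and 2 fell in WT (36.9% and 35.4% of all genes), and 6 rose and 1, Myc, fell in Nrf1KO (38.7% and 38.3%). In WT the call of Cdk9 over this interval was lost without WT CFZ 6 h replicate 2 (0.11, adjusted p = 0.0606) or replicate 3 (0.08, adjusted p = 0.178). The response differed between the lines at 6 h for 1 gene upwards, Myc, and 1 downwards, Ccnt1 (19.8% and 18.4% of all genes), and at 24 h for 3 upwards, Brd2, Brd3 and Ccnt2, and 1 downwards, Myc (29.7% and 30.0%), which became 2 upwards and 2 downwards with library size alone.

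Between the lines in DMSO, 4 of the 7 genes were higher in Nrf1KO and 0 were lower (25.7% and 29.1% of all genes). Ccnt1 was higher by 0.35 ± 0.057 (log2, SE, adjusted p = 5.09e-06), Myc by 0.32 ± 0.055 (adjusted p = 8.55e-06), Cdk9 by 0.18 ± 0.042 (adjusted p = 5.04e-04) and Brd2 by 0.10 ± 0.033 (adjusted p = 0.0112). Brd3 at -0.06, Ccnt2 at -0.06 and Hexim1 at -0.03 did not pass the threshold (adjusted p = 0.273, 0.332 and 0.621). At 6 h of CFZ 2 were higher and 1 was lower (30.5% and 30.8% of all genes): Myc stood 0.51 ± 0.048 higher (adjusted p = 7.35e-11) and Cdk9 0.22 ± 0.047 higher (adjusted p = 1.42e-04), and Hexim1 at -0.14 ± 0.053 was lower (adjusted p = 0.0251). The call of Hexim1 was lost with DESeq2, with both other scalings and without WT CFZ 6 h replicate 2 or Nrf1KO CFZ 6 h replicate 1 or 3 (-0.07 to -0.14, adjusted p from 0.0524 to 0.254). With library size alone and with upper quartiles, Brd2 (0.10 and 0.08, adjusted p = 0.0140 and 0.0390) and Ccnt1 (0.15 and 0.13, adjusted p = 0.0256 and 0.0443) were called too, which made 4 higher and 0 lower. At 24 h 5 were higher and 0 were lower (35.6% and 36.4% of all genes), with Brd2 at 0.60 ± 0.032, Brd3 at 0.35 ± 0.048, Cdk9 at 0.26 ± 0.043, Ccnt1 at 0.21 ± 0.050 and Ccnt2 at 0.17 ± 0.049 (adjusted p = 6.22e-17, 9.97e-08, 3.01e-06, 4.25e-04 and 0.00237). The value of Ccnt2 was 0.11 without WT CFZ 24 h replicate 3 (adjusted p = 0.0646).

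Brdt, a BET gene known from testis, was between 1.88 and 13.0 CPM in every library. At 24 h it rose by 1.40 in WT and 1.70 in Nrf1KO, and at 6 h it was lower in WT, at -0.48 (adjusted p = 0.0277), and not called in Nrf1KO (0.17, adjusted p = 0.362).

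For this list and those that follow, 34.5% to 44.4% of all tested genes rose and 35.0% to 41.1% fell in the comparisons of CFZ with DMSO. Of the other 7SK genes, all 3 fell in WT at 6 h and 2 of 3 in Nrf1KO, and at 24 h 2 of 3 fell in each line. Hexim2, which encodes a relative of HEXIM1 that also inhibits P-TEFb, fell most, with log2 fold changes of -1.25 and -1.52 in WT and -1.05 and -1.53 in Nrf1KO at 6 h and 24 h. It went from 8.57 ± 0.549 to 3.61 ± 0.585 and 3.02 ± 0.230 CPM in WT (SD, n = 3), whereas Hexim1 rose from 6 h to 24 h. Mepce, the capping enzyme of 7SK RNA, was at -0.41 and -0.35 at 6 h in WT and Nrf1KO and at 24 h stood at -0.04 in WT (adjusted p = 0.503) and 0.21 in Nrf1KO (adjusted p = 5.67e-05), a call that was lost with scaling by library size alone. Larp7, which stabilises 7SK RNA, was at -0.57 and -0.44 at 24 h in WT and Nrf1KO.

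Super elongation complex genes mostly rose, while 34.5% to 44.4% of all genes rose and 35.0% to 41.1% fell in the comparisons with DMSO. The list was not tested against other genes. Of the 8 tested of 9 listed, 5 rose and 1 fell at 6 h and 7 rose and 1 fell at 24 h in WT, and 6 rose and 0 fell and then 6 rose and 1 fell in Nrf1KO. Their median log2 fold change was 0.29 and 0.69 in WT and 0.37 and 0.96 in Nrf1KO. With upper-quartile scaling or library size alone, 5 or 6 rose and at most 2 fell in each of these comparisons. Eaf1, which encodes a partner of the ELL elongation factors, rose by 1.95 and 2.21 in WT, and by 1.61 at 24 h in Nrf1KO, from 46.4 ± 1.81 CPM in WT DMSO to 215 ± 8.48 at 24 h. At 6 h its rise was smaller in Nrf1KO, with an interaction of -1.05 ± 0.065 (adjusted p = 2.27e-14). Aff1, a scaffold of the complex, rose by 1.51 and 1.49 in WT and by 2.16 and 1.78 in Nrf1KO. Ell2, an elongation factor, rose by 1.07 at 6 h in WT and by 1.34 at 24 h in Nrf1KO, and Mllt3 was the lowest of the list in WT, at -0.16 and -0.53.

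The pausing factors, DSIF and NELF, did not move together. At 6 h 2 of 6 rose and 1 fell in WT and 1 rose and 4 fell in Nrf1KO, and at 24 h 2 rose and 2 fell in WT and 2 rose and 3 fell in Nrf1KO. With both other scalings 2 rose and 4 fell at 6 h in WT. Supt5, the large subunit of DSIF, was the highest in all 4 comparisons, at 0.54 and 1.09 in WT and 0.51 and 1.06 in Nrf1KO, and the lowest were Nelfcd at -0.14 and Nelfa at -0.32 in WT and Supt4a at -0.23 and Nelfe at -0.39 in Nrf1KO. Of 8 other transcriptional kinase and cyclin genes, 5 rose and 1 fell at 6 h and 4 rose and 3 fell at 24 h in WT, and 5 rose and 0 fell and then 4 rose and 2 fell in Nrf1KO, where 4 fell at 24 h with library size alone. Cdk12, a kinase of the elongating polymerase, rose by 0.69 and 1.04 in WT and by 1.03 at 24 h in Nrf1KO, and Ccnh, the cyclin of the kinase in TFIIH, was the lowest at 24 h, at -0.34 in WT and -0.45 in Nrf1KO.

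Partners and antagonists of MYC changed in both directions while Myc rose. Of the 9 genes tested of 10 in the Myc-Max network, 2 rose and 5 fell at 6 h and 4 rose and 5 fell at 24 h in WT, and 4 rose and 4 fell and then 6 rose and 3 fell in Nrf1KO. With both other scalings 2 rose and 4 fell at 6 h in Nrf1KO. Mxd3, which encodes an antagonist that pairs with MAX, fell in both lines, with log2 fold changes of -1.71 and -2.57 in WT and -1.70 and -3.50 in Nrf1KO at 6 h and 24 h, from 14.8 ± 1.31 CPM in WT DMSO to 2.49 ± 0.398 at 24 h. Mlx, a MAX-like partner of metabolic transcription factors, rose by 1.54 at 24 h in WT and by 0.82 in Nrf1KO. Mxi1, another antagonist of MYC, was at -1.11 and -0.38 in WT and at -0.42 and 0.75 in Nrf1KO, an interaction of 1.13 ± 0.072 at 24 h (adjusted p = 1.17e-14). Mxd4, of the same antagonist family, fell by 1.16 at 24 h in WT. Mycn reached at most 1.18 CPM in any library and 0 in all 3 WT libraries at 24 h, so no fold is given.

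Genes that act on MYC protein stability included Usp36, which encodes a deubiquitinase of MYC, at 0.70 in WT and 0.98 in Nrf1KO at 6 h, the highest of 7, and Skp2, an F-box protein gene, at -0.68 and -0.78 in Nrf1KO. In this list 4 rose and 1 fell at each time in WT, and 4 rose and 2 fell and then 5 rose and 1 fell in Nrf1KO. With library size alone 1 rose and 2 fell at 6 h in Nrf1KO, and with upper quartiles 3 rose and 3 fell at 24 h in WT.

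Of 12 textbook Myc-activated genes, 5 rose and 4 fell in WT and 4 rose and 6 fell in Nrf1KO at 6 h, where 35.6% and 34.5% of all tested genes rose and 36.2% and 35.0% fell. Their median log2 fold change was -0.01 and -0.17, beside -0.02 and -0.01 for all genes, and the list was not tested against other genes. In WT the balance turned with the scaling, to 3 higher and 6 lower at 6 h with library size alone and 4 higher and 6 lower with upper quartiles. The highest at 6 h was Srm, the spermidine synthase gene, at 0.52 in WT and 0.28 in Nrf1KO. At 24 h 5 rose and 4 fell in WT (4 and 6 with upper quartiles) and 5 rose and 5 fell in Nrf1KO. Npm1 and Ncl, genes of nucleolar proteins, rose by 1.15 and 1.12 at 24 h in Nrf1KO, and Ldha, the lactate dehydrogenase gene, fell at 24 h, with log2 fold changes of -2.06 in WT and -1.96 in Nrf1KO.

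Genes listed as BET targets moved mainly downwards with CFZ, although the list mixes genes known to fall and to rise with BET inhibitors. No BET inhibitor was present. Of all tested genes, 34.5% to 44.4% rose and 35.0% to 41.1% fell in the comparisons of CFZ with DMSO. The list holds genes known to fall with BET inhibitors and others, Serpini1 and Hist2h2be, known to rise. Foxm1, Tert, Bcl2 and Aurkb are on the list because they were followed in human cell lines in the same work. In those lines the paper reports a modest fall of these genes with CFZ alone. It was measured by quantitative RT-PCR, at another time and with another normalization than here. Of the 6 genes, 0 rose and 4 fell at 6 h in each line and 1 rose and 4 fell at 24 h in each line, and with both other scalings 4 or 5 fell and at most 1 rose. Those that fell include Hist2h2be at both times in each line, opposite to its known direction with BET inhibitors. Foxm1, a transcription factor gene of the cell cycle, was 155 ± 6.08 CPM in WT DMSO, 102 ± 5.84 at 6 h and 40.6 ± 0.531 at 24 h, and 174 ± 7.44, 119 ± 2.86 and 15.9 ± 0.888 CPM in Nrf1KO (SD, n = 3). Aurkb, a mitotic kinase gene, fell at 24 h, with log2 fold changes of -1.93 in WT and -3.46 in Nrf1KO, and the interactions at 24 h were -1.52 ± 0.077 for Foxm1 and -1.53 ± 0.118 for Aurkb (adjusted p = 4.47e-17 and 1.10e-12). Bcl2, a survival gene, was at -1.02 and -1.27 at 24 h in WT and Nrf1KO, and in DMSO it stood 1.16 ± 0.075 higher in Nrf1KO (adjusted p = 2.85e-14). Serpini1, a gene known to rise with BET inhibitors, rose by 1.67 and 1.94 at 24 h, from 1.05 ± 0.319 to 3.24 ± 0.266 CPM in WT, and Hist2h2be, a histone gene also known to rise with them, fell at 6 h, with -0.97 in WT and -1.82 in Nrf1KO at levels of at most 1.77 CPM. Tert, at about 1 CPM, was not called in any of the 4 comparisons (adjusted p from 0.0647 to 0.608).

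**Figure D4:**
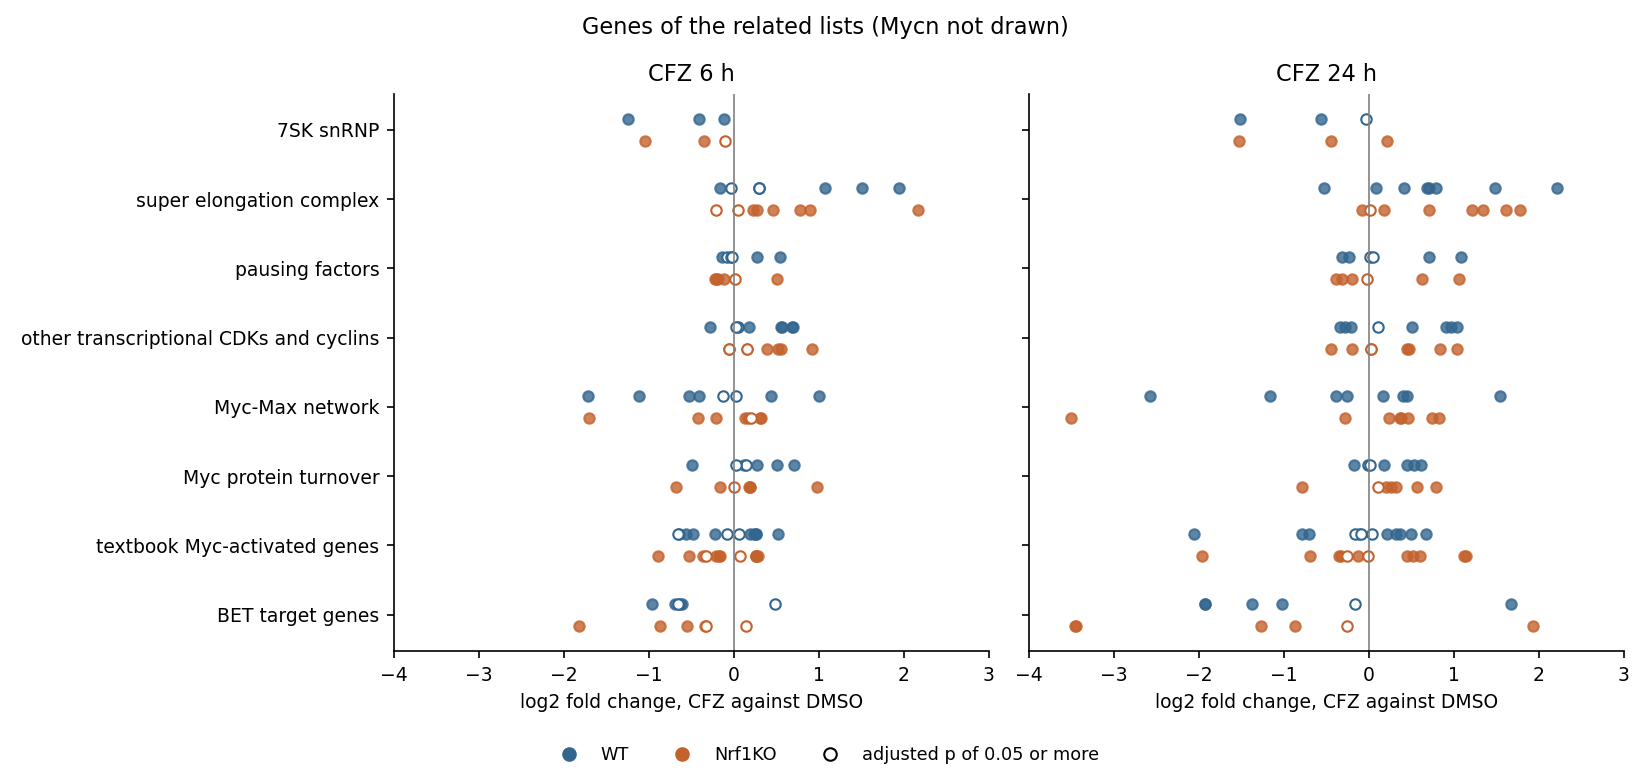
Log2 fold change of CFZ against DMSO (x axis) of the tested genes in 8 lists (y axis) at 6 h and 24 h. Each point is a gene, in WT or Nrf1KO, and open points did not pass an adjusted p of 0.05. The points of the super elongation complex lie mainly above 0 and those of the BET target genes mainly below 0, down to -3.46 in Nrf1KO at 24 h.

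The search for genes with a like pattern covered the 10260 genes whose mean count reached 50, and the 3 whose log2 CPM followed each of the 7 most closely over the 18 libraries were found by Pearson's r, which is a description across libraries that share groups and treatments. For Hexim1 they included Polrmt, the mitochondrial RNA polymerase gene (r = 0.979), and Jarid2 (0.966), and for Myc they were Mtbp (0.966), Azin1 (0.965) and Pitpnb (0.963). Brd2 was followed by BC016423 (0.988), Cdc5l (0.985) and Hnrpdl (0.982), and Brd3 by Zfp608 (0.948), Abtb2 (0.934) and S1pr1 (0.930). The cyclin genes were followed by Atp13a3 (0.982), Zbtb49 (0.978) and Senp2 (0.977) for Ccnt1 and by Taf1a (0.985), Mettl2 (0.984) and Rnf111 (0.984) for Ccnt2. Cdk9 was followed by Ugt1a6b (0.965), Naip5 (0.961) and Cmtm3 (0.958). Ugt1a6b and Naip5 belong to families of similar genes, so their counts are less certain.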

How the data were processed

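The authors made stranded poly(A) RNA libraries (KAPA), sequenced them and ran RNA Express, which combines STAR and DESeq2. They deposited 1 table of raw counts, whole reads per gene symbol without normalization. Genome build, annotation, versions and strand use are not given in the sources used here. All 18 columns were matched to samples by their labels.

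From these counts, edgeR 4.0.16 (R 4.3.3) was run after filtering with filterByExpr (minimum count 10, minimum total 15), TMM scaling and 1 quasi-likelihood model of the 6 groups, for 11 comparisons, each adjusted by Benjamini-Hochberg over the 11762 genes tested, with an adjusted p under 0.05 and no minimum fold as the threshold. The SE is the log2 fold change divided by the square root of F. Depth was 8333148 to 23917081 counts per library. With a biological coefficient of variation of 3.13%, even small differences pass. Replicates, called biological by the study and only numbered in the labels, differed by more than sampling noise in every pair (chi-square per degree of freedom 1.44 to 8.47), and whether they were separate cultures is not given, so p-values measure the spread between these libraries. CPM are TMM-scaled. Ratios of counts were compared by an exact permutation test, two-sided, whose smallest p is 0.1.

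The 7 genes and the lists were chosen with earlier results of these data known. From each list, the highest and lowest gene and any called gene of at least 2-fold may be named; other values named from the lists (Brdt, Mepce and Larp7 in all comparisons, Tert) complete short lists and were chosen after their values were seen. A few results are not reported here. Lists were described by counts and medians, without a test. The alternatives were upper-quartile scaling, library size alone, DESeq2 1.42.0, no filter, a mean count of at least 10, only the compared groups, a replicate block, leaving out single libraries, and a minimum fold of 2. The tests were also run on simulated counts in which few genes changed and all genes shared the same spread. That setting differs from these data and cannot show how calls depend on the scaling.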

Additional observations from a re-analysis of the deposited data

Results flagged for a closer look

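By the interaction term of edgeR's model, the response to CFZ differed between the lines at 6 h for 1 of the 7 genes upwards and 1 downwards. At 24 h it differed for 3 upwards and 1 downwards. Of all tested genes, 19.8% differed upwards and 18.4% downwards at 6 h, and 29.7% and 30.0% at 24 h. At 6 h the response of Nrf1KO minus that of WT was -0.27 for Ccnt1 (adjusted p = 0.00930) and 0.19 for Myc (adjusted p = 0.0361) on the log2 scale. At 24 h it was 0.50 for Brd2 (adjusted p = 6.69e-11), 0.41 for Brd3 (adjusted p = 2.99e-06), 0.24 for Ccnt2 (adjusted p = 0.00634) and -0.37 for Myc (adjusted p = 1.22e-04). The 6 h value of Myc was not called with DESeq2 (adjusted p = 0.063) or when certain single libraries were left out. With library size alone the 24 h value of Ccnt2 was not called (adjusted p = 0.0692). An interaction is the difference between the lines with CFZ minus that in DMSO. Ccnt1, Myc and Brd2 already differed between the lines in DMSO, by 0.35, 0.32 and 0.10. At 6 h of CFZ the lines differed by 0.08 for Ccnt1, which was not called, and by 0.51 for Myc. At 24 h they differed by -0.04 for Myc, which was not called, and by 0.60 for Brd2. Why the lines differed in DMSO was not tested. Against DMSO at 24 h Brd3 was at -0.24 in WT and at 0.18 in Nrf1KO, the only one of the 7 genes called in opposite directions in the lines, and with library size alone the Nrf1KO value was -0.01 (adjusted p = 0.908).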

How the results depend on the processing

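Of 1085 values of 77 results for the 7 genes under the alternatives, 1016 kept their direction and their side of the threshold, 31 changed sign, 33 lost a call and 11 gained one, of which 3 and 3 also changed sign. A minimum fold of 2 left 1 gene called in WT at 6 h, 0 in WT at 24 h, 1 in Nrf1KO at 6 h, 1 in Nrf1KO at 24 h, 0 and 1 from 6 h to 24 h in WT and Nrf1KO, and 0 in each comparison of the lines and each interaction. Of all tested genes it left 9.63% and 25.0% in WT at 6 h and 24 h, and 7.56% and 26.7% in Nrf1KO. From 6 h to 24 h it left 12.1% in WT and 15.8% in Nrf1KO. Between the lines it left 4.97% in DMSO, 7.31% at 6 h and 12.2% at 24 h, and in the interactions 2.78% and 8.60%. With upper-quartile scaling 3 genes were called in Nrf1KO at 24 h in place of 6, and with DESeq2 1 interaction at 6 h in place of 2. Leaving out 1 library gave 1 to 2.

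Of the 31 sign changes 25 were uncalled both ways. With library size alone Hexim1 was -0.088 in WT and -0.0997 in Nrf1KO at 24 h, 0.022 between the lines in DMSO and -0.011 in the 24 h interaction, Brd3 was -0.0059 and Myc -0.0016 in Nrf1KO at 24 h, Cdk9 was -0.108 in Nrf1KO at 6 h and Ccnt2 0.039 between the lines at 6 h. With upper-quartile scaling Hexim1 was -0.12 in WT and -0.0255 in Nrf1KO at 24 h, Cdk9 -0.023 in WT at 24 h and -0.069 in Nrf1KO at 6 h, and Ccnt2 0.021 between the lines at 6 h. For Hexim1 in WT at 24 h DESeq2 gave -0.00152, no expression filter -0.039 and only the compared groups -0.0151, and for Cdk9 in Nrf1KO at 6 h DESeq2 gave -0.016 and no expression filter -0.044.

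With 1 library left out the range crossed 0 for Hexim1 in WT at 24 h (-0.018 to 0.043) and between the lines in DMSO (-0.0597 to 0.022), Cdk9 at 6 h in WT (-0.057 to 0.0053), in Nrf1KO (-0.016 to 0.027) and in the interaction (-0.019 to 0.064), Brd3 (-0.021 to 0.073) and Ccnt2 (-0.076 to 0.00297) between the lines at 6 h, the Ccnt2 interaction at 6 h (-0.012 to 0.068), Myc between the lines at 24 h (-0.078 to 0.016) and the log2 ratio of Brd2 to Brd3 between the lines at 6 h (-0.0297 to 0.049). A fit with a replicate block left every count of called genes as it was, such as 4 interactions at 24 h. Over all tested genes, same-numbered libraries did not deviate together (45 pairs, correlation of deviations from -0.049 to 0.097, mean 0.014). These correlations cannot show whether same-numbered libraries shared a day or culture that affected some genes only. The causes of the changed calls were not tested. Differences of about 0.1 on the log2 scale pass the threshold, and the scaling alone moves a comparison of CFZ with DMSO by as much.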
